A study of Mus musculus with 20 samples.

Results

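The genes described here make, degrade or carry out the cyclic AMP signal: adenylyl cyclases, phosphodiesterases, the subunits of protein kinase A (PKA) and the A-kinase anchoring proteins. They were chosen by name, as every non-control probe on the array whose gene name starts with Adcy, Pde, Prkac, Prkar or Akap in the form of a family member. This gave 57 of the 30222 gene names on the array, which has 39429 such probes. The cyclases contributed 10 genes with 14 probes, the phosphodiesterases 25 genes with 49 probes, PKA 6 genes with 13 probes and the anchoring proteins 16 genes with 31 probes. The rule uses names and no measured value, but it was set with earlier results of these data known.

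Adenylyl cyclases turn ATP into cyclic AMP when a stimulatory G protein binds them, and several are also switched on or off by calcium, so that they can read action potential firing. Cyclic AMP frees the catalytic subunits of PKA from its regulatory subunits, and anchoring proteins hold the enzyme beside channels, receptors, mitochondria or the nucleus. Phosphodiesterases end the signal by hydrolysing cyclic AMP, cyclic GMP or both. In sensory neurons this pathway is known for its part in excitability and in axon growth. The name of a family does not always give the function: Pde12 encodes a mitochondrial enzyme that shortens poly(A) tails and not a cyclic nucleotide phosphodiesterase, Pde6d encodes a carrier of prenylated proteins, and the other Pde6 genes are best known from photoreceptors.

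The cells were dorsal root ganglion (DRG) neurons from NIH Swiss mouse embryos at day 13.5, cultured with nerve growth factor and an inhibitor of cell division and used after 3 to 4 weeks, when medium without the growth factor and serum had been given overnight. Electrodes drove action potentials in bursts at a fixed rate within the burst, either 18 action potentials every 1 min (the 18/1 pattern) or 90 every 5 min (the 90/5 pattern), so that both gave the same number over time. Each pattern was applied for 2 hr or for 5 hr, and unstimulated neurons were handled in the same way with electrodes in place, which makes 5 conditions with 4 samples each. The methods describe pooled cultures and call the samples biological replicas, but do not say how cultures were divided among them, so p-values measure the spread between these samples, part of which may be technical. The RNA came from whole cultures, in which a lower share of a cell type and less RNA per cell cannot be told apart.

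Each array carried 2 samples of the same condition, 1 in each dye, and each condition had 2 arrays. Slide 1 held the unstimulated and 18/1 2 hr samples, slide 2 the 18/1 5 hr and 90/5 2 hr samples, and slide 3 the 90/5 5 hr samples, so 18/1 5 hr, 90/5 2 hr and 90/5 5 hr lay on other slides than their controls and for them slide and condition cannot be told apart. The scanner software marked 45 to 14642 spots per sample as non-uniform on slide 2, against 6 to 36 on slide 1 and 37 to 85 on slide 3, and 840 to 2800 spots as saturated on slide 2 against 0 to 486 and 0. Replicates of a condition correlated at r = 0.955 to 0.994 across genes. All 12 sensory neuron markers passed the spot filter in all 20 samples, as did 2 of 8 markers of Schwann and satellite cells, 4 of 6 of fibroblasts, 2 of 5 of macrophages, 1 of 3 of spinal motor neurons (not Chat or Mnx1) and 0 of 3 of astrocytes, and no list had a gene that passed in no sample. One line of the culture protocol names spinal cord and not DRG as the tissue taken. The summed log2 intensity of the fibroblast markers was 16.0 to 16.2 at 18/1 5 hr and 14.1 to 15.4 in unstimulated neurons, that of the astrocyte markers 9.76 to 11.1 and 8.65 to 9.17, and that of the sensory neuron markers 18.7 to 19.3 and 19.1 to 19.2. At 90/5 2 hr these lists gave 14.4 to 16.3, 9.06 to 10.2 and 18.9 to 19.3. The macrophage markers gave 13.4 to 14.9 at 18/1 5 hr and 13.3 to 14.7 at 90/5 2 hr, against 14.3 to 14.9 in unstimulated neurons. The spinal motor neuron list was 8.88 to 9.04 in unstimulated neurons, 8.42 to 8.84 at 90/5 2 hr, all below, 9.13 to 9.48 at 90/5 5 hr, all above, and 8.42 to 9.77 at 18/1 5 hr. At 90/5 5 hr the fibroblast, astrocyte, macrophage and sensory neuron lists, at 14.4 to 15.4, 8.68 to 9.30, 14.1 to 14.5 and 18.8 to 19.7, overlapped with unstimulated neurons. The part of these shifts in the results below was not tested.

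Of the 57 genes, 27 had a probe that was at least 2 times as bright as its background and not marked non-uniform in all 20 samples, and only these were tested, among 10355 genes in all. They were Adcy1, Adcy5, Adcy6 and Adcy9, 10 phosphodiesterases, all 6 PKA subunits and 7 anchoring proteins. Another 14 genes were bright enough in all 20 samples and missed the filter only by the mark for non-uniform spots: Adcy2, Adcy7, Adcy8, Akap1, Akap6, Akap9, Akap10, Akap17b, Pde1c, Pde4d, Pde5a, Pde6g, Pde7a and Pde11a. All 111 such marks on spots of these families lay on slide 2. Adcy3, Pde3a, Pde4b, Pde9a and Pde10a passed in 10 to 19 samples. The remaining 11 genes passed in under 10 samples, and they include Pde6a, Pde6b, Pde6c and Pde6h as well as the soluble cyclase Adcy10 and the sperm anchoring proteins Akap3 and Akap4.

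After 5 hr of the 18/1 pattern 12 of the 27 tested genes had changed, 4 higher and 8 lower. This is 44.4% of them, and over all 10355 genes tested the share called was also 44.4%, so the families stood at the background of this comparison. Over all genes 15% were higher and 29.5% lower. The anchoring proteins accounted for 6 of the 12 calls out of 7 tested (Akap7, Akap11 and Akap13 higher, Akap2, Akap8 and Akap8l lower), the phosphodiesterases for 3 of 10 (Pde8b higher, Pde1a and Pde12 lower), the PKA subunits for 2 of 6 (Prkaca and Prkacb lower) and the cyclases for 1 of 4 (Adcy9 lower). The median log2 fold change was −0.22 over the 27 genes and −0.23 over all genes. It was −0.48 for the cyclases, −0.18 for the phosphodiesterases, −0.39 for the PKA subunits and 0.23 for the anchoring proteins, the last falling to −0.00 under quantile normalization. With each sample only centred on its median, these family medians were −0.98, −1.16, −1.09 and −0.89, so that of the anchoring proteins turned its sign, the median of all genes was −0.81 and 18 of the 27 genes were called, 2 higher and 16 lower, against 5364 of the 10355.

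After 2 hr of the 90/5 pattern 3 of the 27 genes had changed: Akap7 was higher and Pde1a and Prkacb were lower. This is 11.1%, against 6.97% of all genes, of which 3.58% were higher and 3.39% lower. None of the 27 passed the test after 2 hr of 18/1, where 0.0193% of all genes did, nor after 5 hr of 90/5, where 0.0676% did. In limma 0 and 2 of the 27 genes had an unadjusted p under 0.05 in these 2 comparisons, as did 92 and 382 of all genes. The methods' t-test was run on unlogged values and also asked for a fold of at least 1.4. Unadjusted, it called 0 and 0 of the 27 genes and 216 and 572 of all genes. A further limma fit left slide 2 out and had the replicate number as a block in place of the colour term. It called 0 and 0 of the 27 genes, and 7 and 359 of all genes. The numbers were not taken to pair 90/5 5 hr with unstimulated neurons. When arrays were weighted by quality, an alternative, 3 and 6 of the 27 were called, as were 1600 and 2583 of all genes. The plot of the share of genes called shows the families and all genes side by side.

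**Figure D1:**
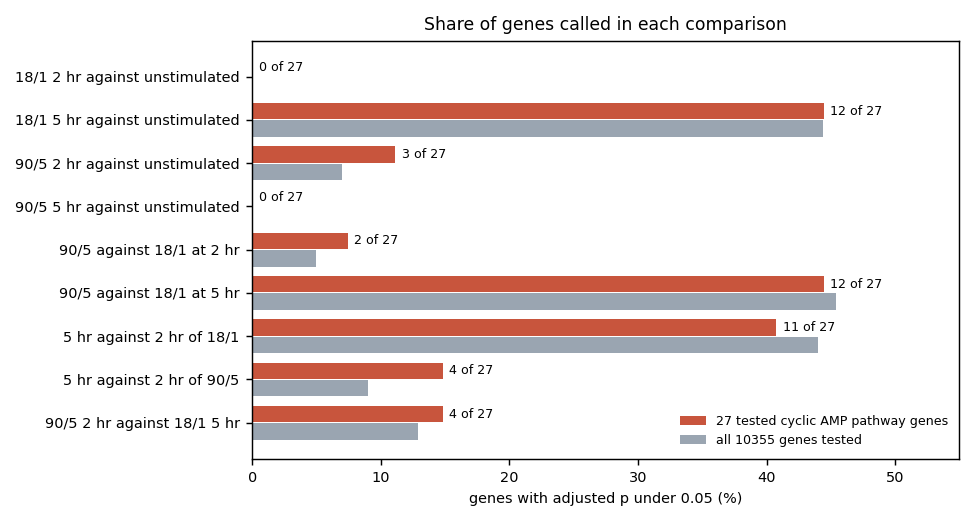
Percentage of genes called (limma, adjusted p under 0.05) in each comparison, for the 27 tested cyclase, phosphodiesterase, PKA and anchoring protein genes and for all 10355 genes tested. The 2 shares are equal at 44.4% for 18/1 5 hr against unstimulated, and both are at or near 0 for 18/1 2 hr and 90/5 5 hr.

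Each pattern was also compared with the other and each time with the other. At 5 hr 12 of the 27 genes differed between the patterns, 8 higher and 4 lower in 90/5, which is 44.4% against 45.4% of all genes (29.6% higher and 15.8% lower), and with samples only centred on the median 15 were higher and 2 lower, with 5882 of the 10355 called. At 2 hr 2 differed, or 7.41% against 4.96%. Between 5 hr and 2 hr of 18/1 11 genes differed, 5 higher and 6 lower at 5 hr (2 and 14 with median centring, when 5395 of the 10355 were called), or 40.7% against 44%, and between 5 hr and 2 hr of 90/5 4 did, or 14.8% against 8.96%. The change from 2 hr to 5 hr itself differed between the patterns in 11 of the 27 genes, against 44.8% of all genes. Only 18/1 2 hr against unstimulated and 90/5 2 hr against 18/1 5 hr were made within a slide.

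**Figure D2:**
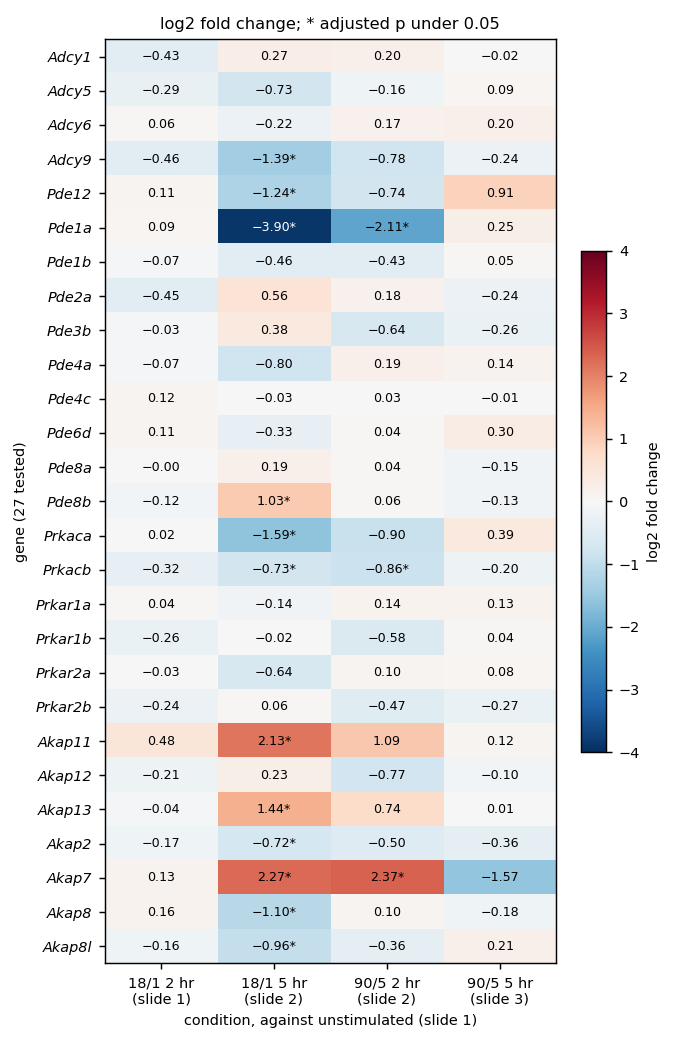
Log2 fold change against unstimulated neurons of the 27 tested genes (rows, by family) in the 4 stimulated conditions (columns), with an asterisk where limma's adjusted p was under 0.05. The asterisks lie in the 18/1 5 hr column (12) and the 90/5 2 hr column (3), the 2 conditions of slide 2.

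Among the cyclases, Adcy9 encodes a widely expressed membrane enzyme that calcium acting through calcineurin restrains. Its log2 intensities were 11.46, 11.59, 11.66 and 11.48 in the unstimulated samples and 9.92, 9.69, 10.63 and 10.39 at 18/1 5 hr. Every sample of 18/1 5 hr lay below every control. The gene fell by 1.39 (SE 0.35, n = 4 and 4) on the log2 scale, a 2.62-fold difference (limma, adjusted p = 0.00293). Over 14 alternatives it ran from −2.10 with median centring to −0.84 with the GC trend removed (highest adjusted p = 0.0452). At 90/5 2 hr the values of 10.91, 11.06, 10.63 and 10.45 were also all below the controls, with a log2 fold change of −0.78 that did not pass the test (limma, adjusted p = 0.176). The values of 10.87, 11.01, 12.15 and 11.20 at 90/5 5 hr overlapped with the controls. Adcy9 also had the lowest p of the 27 genes after 2 hr of 18/1, at −0.46 with an unadjusted p of 0.199 in limma. With arrays weighted by quality that value became −0.69 (limma, adjusted p = 0.00792). Within pairs of the same replicate number Adcy9 differed by −0.73, −0.51, −0.03 and −0.57 and Pde2a by −0.75, −0.33, −0.17 and −0.53. Of the 27 genes 1 was higher and 5 were lower in all 4 pairs, a share of 22.2%, against 25.8% of all genes.

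The cyclases that calcium acts on directly gave smaller values. Adcy1, which calmodulin stimulates, had a mean log2 intensity of 9.74 ± 0.34 (SD, n = 4) in unstimulated neurons. It was 9.31 ± 0.72 and 10.02 ± 0.58 after 2 hr and 5 hr of 18/1 and 9.94 ± 0.46 and 9.72 ± 0.41 after these times of 90/5, and passed in no comparison with the controls. Adcy5 and Adcy6 are inhibited by calcium. Adcy5 was 10.28 ± 0.07 in unstimulated neurons and 9.55 ± 0.19 at 18/1 5 hr, where all 4 samples lay below the controls and the log2 fold change was −0.73 (limma, adjusted p = 0.0785). This fold change was called under several alternatives, among them median centring, no array block, only the compared conditions fitted, array quality weights and the methods' t-test. Adcy5 differed between the patterns at 5 hr, being higher by 0.82 in 90/5 (limma, adjusted p = 0.0491). That call was lost under several alternatives, among them quantile normalization, no spot filter, only the compared conditions fitted, the GC trend removed and the methods' t-test. Adcy6 ranged from 7.90 to 8.32 in the means of the 5 conditions. Adcy8, another calmodulin-stimulated cyclase, was not tested, because of non-uniform marks. Means were 8.34, 8.18, 7.30, 7.79 and 8.12 in the order unstimulated, 18/1 2 hr, 18/1 5 hr, 90/5 2 hr and 90/5 5 hr. Adcy3, of olfactory signalling, had means of 7.65, 7.73, 7.01, 7.72 and 7.72 in the same order and was not tested either.

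Pde1a gave the largest difference of the 27 genes as measured. It encodes a phosphodiesterase that calcium and calmodulin activate and that hydrolyses both cyclic nucleotides. The unstimulated log2 intensities were 10.97, 11.17, 10.54 and 11.09, those at 18/1 2 hr 11.03, 11.60, 10.49 and 11.01, and those at 90/5 5 hr 11.14, 11.00, 11.43 and 11.19, all in 1 band. At 18/1 5 hr they were 6.86, 6.43, 7.62 and 7.25, all below that band, and 2 of these 4 spots were not well above background by the scanner's own mark. Pde1a fell by 3.90 (SE 0.46, n = 4 and 4) on the log2 scale, or 15.0-fold as measured (limma, adjusted p = 3.53e-06), a size that rests in part on those 2 dim spots. After 2 hr of 90/5 they were 9.90 and 9.77 on array 7 and 8.03 and 7.62 on array 8, again all below the controls but well apart between the arrays. In this condition Pde1a fell by 2.11 (SE 0.46), or 4.33-fold (limma, adjusted p = 0.00685). Without array 8 that difference was −1.11 (limma, adjusted p = 0.184), and it did not pass without array 1 or array 2, with the colours of an array averaged (adjusted p = 0.0896) or with no spot filter (0.0633) either, whereas the difference at 18/1 5 hr held its call without any 1 sample or array, at −4.30 to −3.51.

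These values come from 1 of the 2 Pde1a probes, both on the minus strand of chromosome 2 in the mm9 build. The probe used lies at chr2:79753894-79753953, and its first 30 of 60 bases are shown because the values called for the gene rest on it. The 2 probes are annotated to different transcripts and gave different values.
Pde1a probe used: aacttgatcccatctgagagccttactgga
The other probe passed the filter in 15 of 20 samples and gave log2 differences of −0.62 at 18/1 5 hr and −0.21 at 90/5 2 hr, with no test. It was dim, with a mean of 7.33 ± 0.15 in unstimulated neurons, and only 1 of its 4 spots at 18/1 5 hr was well above background. Which transcripts each probe reads, and whether the sites are exonic, was not analysed here.

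The other members of the calmodulin-activated group stayed closer to their controls. Pde1b had a mean of 10.32 ± 0.03 (SD, n = 4) in unstimulated neurons, 9.86 ± 0.62 at 18/1 5 hr and 9.89 ± 0.07 at 90/5 2 hr. Its log2 fold changes of −0.46 and −0.43 did not pass the test (limma, adjusted p = 0.156 and 0.336), although all 4 samples at 90/5 2 hr lay below the controls. With the GC trend removed the value at 18/1 5 hr turned its sign, to 0.55 (limma, adjusted p = 0.0928). Pde1c was not tested, and the means of its brightest probe were 7.65, 7.81, 7.14, 7.49 and 7.88 in the order unstimulated, 18/1 2 hr, 18/1 5 hr, 90/5 2 hr and 90/5 5 hr.

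Pde8b encodes a phosphodiesterase specific for cyclic AMP with high affinity for it. Its unstimulated log2 intensities were 11.07, 11.38, 10.98 and 11.57 and those at 18/1 5 hr 12.38, 12.37, 12.12 and 12.25. It rose in this condition by 1.03 (SE 0.26, n = 4 and 4), or 2.05-fold, with all samples above the controls (limma, adjusted p = 0.00328). In the 90/5 2 hr samples, on the same slide, the values of 10.88, 11.16, 11.75 and 11.45 spanned those of the controls and the log2 fold change was 0.06. When each sample was only centred on its median, the value at 18/1 5 hr was 0.42 and did not pass (limma, adjusted p = 0.264). Its relative Pde8a stayed between 8.36 and 8.69 in the means of all 5 conditions.

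Pde12, the mitochondrial enzyme, had log2 intensities of 9.04, 8.64, 9.17 and 8.83 in unstimulated neurons and 7.41, 7.25, 8.11 and 7.96 at 18/1 5 hr. It fell by 1.24 (SE 0.33, n = 4 and 4), or 2.36-fold (limma, adjusted p = 0.00445). At 90/5 5 hr the values were 9.21, 9.24, 10.35 and 10.52, all above the controls and split between the 2 arrays. That log2 difference was 0.91 with an unadjusted p of 0.0108 (limma, adjusted p = 0.938). Without array 5 the change at 18/1 5 hr was −0.89 and just missed the threshold (limma, adjusted p = 0.0591), and it missed it also without array 2 (adjusted p = 0.0552).

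Pde2a, whose product is activated by cyclic GMP and hydrolyses cyclic AMP, was among the brighter probes. The values were 13.94, 13.88, 14.39 and 13.98 in unstimulated neurons and 13.18, 13.55, 14.22 and 13.45 at 18/1 2 hr. At 18/1 5 hr they were 15.20, 15.02, 13.95 and 14.25, with 3 of the 4 spots saturated, so that the upper values are bounds. The log2 difference against controls was −0.45 at 18/1 2 hr and 0.56 at 18/1 5 hr, neither of which passed (limma, adjusted p = 1.00 and 0.273), whereas the rise of 1.00 from 2 hr to 5 hr of 18/1 did (limma, adjusted p = 0.0485), though not under several alternatives, among them no background subtraction, median centring, the colours of an array averaged and only the compared conditions fitted. Of the cyclic AMP specific Pde4 genes, Pde4a had a log2 difference of −0.80 at 18/1 5 hr with all 4 samples below the controls (limma, adjusted p = 0.0946). Several alternatives called it, among them median centring, no array block, only the compared conditions fitted, array quality weights and the methods' t-test. Pde4c was saturated in all 8 samples of slide 2, so its differences of −0.03 and 0.03 say nothing about its level there. It was also saturated in 2 of 4 unstimulated samples and 2 of 4 samples at 18/1 2 hr. Its differences in the other conditions are therefore also as measured. Pde3b, which cyclic GMP inhibits, was at 0.38 at 18/1 5 hr and −0.64 at 90/5 2 hr, and neither value passed. Pde6d gave −0.33 and 0.04.

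PKA has 2 catalytic subunits on the array and both were lower after 18/1 for 5 hr, while the probes used for its 4 regulatory subunits, 3 of them saturated in at least 1 of those samples, did not pass the test. Prkaca had log2 intensities of 8.76, 8.80, 8.68 and 8.58 in unstimulated neurons, 8.75, 8.84, 8.68 and 8.62 at 18/1 2 hr and 7.08, 6.67, 7.41 and 7.28 at 18/1 5 hr. The unstimulated and 18/1 2 hr values overlapped, and those at 18/1 5 hr lay below both. Prkaca fell by 1.59 (SE 0.31, n = 4 and 4), or 3.02-fold, at 18/1 5 hr (limma, adjusted p = 0.000468), where 3 of the 4 spots were well above background. Under 90/5 for 2 hr they were 8.43 and 8.52 on array 7 and 7.37 and 6.91 on array 8, all below the controls and the array 8 spots not well above background, with a log2 difference of −0.90 (limma, adjusted p = 0.0881). At 90/5 5 hr they were 9.07, 9.11, 8.93 and 9.28, all above the controls, with a difference of 0.39 and an unadjusted p of 0.225 in limma. The change at 18/1 5 hr kept its call without any 1 sample or array, at −1.83 to −1.36.

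Prkacb was a brighter probe. Its log2 intensities were 14.61, 14.61, 14.68 and 14.40 in unstimulated neurons, 13.63, 13.62, 13.92 and 14.20 at 18/1 5 hr and 13.99, 13.95, 13.36 and 13.55 at 90/5 2 hr. All 8 samples of slide 2 lay below all 4 controls. It fell by 0.73 (SE 0.26) at 18/1 5 hr and by 0.86 (SE 0.26) at 90/5 2 hr, or 1.66-fold and 1.82-fold (limma, adjusted p = 0.0286 and 0.0499). Both calls were fragile: the first was lost without array 1, array 2 or array 5, unstimulated replicate 3 or 90/5 5 hr replicate 4 (−0.95 to −0.51 over all leave-outs), and in 3 of 14 processing alternatives (−0.18 with the GC trend removed), and the second in 20 of 30 leave-outs. The second was also lost in 10 of 14 processing alternatives, and with median centring it was −0.35 (limma, adjusted p = 0.528). The second probe of the gene gave −0.14 at 18/1 5 hr.

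The regulatory subunits had log2 differences at 18/1 5 hr of −0.14 for Prkar1a, −0.02 for Prkar1b, −0.64 for Prkar2a and 0.06 for Prkar2b, as measured. Of the 4 spots there 1 was saturated for Prkar1a and 2 for Prkar2b, so these values do not show that the level was the same. Their probes did not all give the same picture. Prkar1b was saturated in all 4 samples of 18/1 5 hr in the probe used, and its other passing probe gave −0.91 (limma over every probe, adjusted p = 0.0494). A second passing probe of Prkar1a gave 0.65 and one of Prkar2b 1.06, and neither passed (adjusted p = 0.289 and 0.113 in the same fit). In the 90/5 2 hr samples the 4 subunits stood at 0.14, −0.58, 0.10 and −0.47 in the same order, and none passed. Here 1 spot of Prkar1a and 2 of Prkar1b were saturated.

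Anchoring proteins were called in both directions. Akap7, whose short products hold PKA at the plasma membrane beside ion channels, had log2 intensities of 10.42, 11.62, 10.36 and 11.80 in unstimulated neurons and 10.78, 11.98, 10.52 and 11.45 at 18/1 2 hr. In both conditions the Cy5 sample of an array was the higher one. The values were 13.10, 13.17, 13.40 and 13.59 at 18/1 5 hr and 12.96, 12.85, 13.60 and 14.27 at 90/5 2 hr. All 8 lay above every control, and Akap7 rose by 2.27 (SE 0.55) and 2.37 (SE 0.55), or 4.82-fold and 5.18-fold (limma, adjusted p = 0.00259 and 0.012). At 90/5 5 hr the values of 8.81, 9.35, 10.54 and 9.22 were lower than or overlapped with the controls, with a log2 difference of −1.57 and an unadjusted p of 0.00978 (limma, adjusted p = 0.938). With arrays weighted by quality this Akap7 difference was called, at −2.25 (adjusted p = 8.48e-08), as was that of Pde12, at 0.68 (adjusted p = 0.00972). The call at 90/5 2 hr was lost without array 1, array 2 or array 8, where the value was 1.86 to 2.40, with no spot filter (2.37, adjusted p = 0.165) and by the methods' t-test after adjustment.

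Akap7 had 3 probes, all annotated to the same transcript on the minus strand of chromosome 10 (mm9), and only the brightest of them, which was used, was called. It lies at chr10:25003766-25003825, far from the others at chr10:24888897-24888956 and chr10:24889928-24889987. The first 30 of 60 bases of each are shown because 80% of the bases of the probe used are A or G.
Akap7 probe used: cccaaagagaagcaaagaagaagaagaaga
Akap7 second probe: gtattcctttatacggccctacgttttcat
Akap7 other probe: atgcctggtaaagtgtttatgaactctcag
The second probe passed the filter in all 20 samples and gave −0.08 at 18/1 5 hr and −0.50 at 90/5 2 hr (limma over every probe, adjusted p = 0.837 and 0.285). The remaining one passed in 18 samples and gave 0.65 and 0.37. The values called for Akap7 are therefore those of 1 probe, and what it reads beside Akap7 was not tested.

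Akap11, whose product brings PKA together with a protein phosphatase and the kinase GSK3, rested on more than 1 probe. The log2 intensities of the probe used were 13.40, 13.11, 12.13 and 12.57 in unstimulated neurons and 14.31, 14.62, 15.73 and 15.08 at 18/1 5 hr, the last 3 of them saturated. The groups did not overlap. Akap11 rose by 2.13 (SE 0.46, n = 4 and 4) as measured (limma, adjusted p = 0.00091), with only 1 of the 4 stimulated spots below saturation, so the size of the rise is not known. A second passing probe had a mean of 8.73 ± 0.11 in unstimulated neurons and 10.53 ± 0.36 at 18/1 5 hr and rose by 1.79 (limma over every probe, adjusted p = 6.91e-05), and another, passing in 18 samples, gave 0.45. The probe used gave 13.06, 13.42, 14.37 and 14.73 at 90/5 2 hr, overlapping with the controls, and the log2 difference of 1.09 did not pass (limma, adjusted p = 0.152). Both passing probes lie on the minus strand of chromosome 14, at chr14:78892256-78892315 and chr14:78913214-78913273 in mm9.
Akap11 probe used: gagtttgctcatttagtgcactaaggtctt
Akap11 second probe: gaagtactaggctcagttcttcatactcaa

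Akap13, a large scaffold protein, had log2 intensities of 10.80, 11.46, 10.95 and 11.35 in unstimulated neurons and 12.35, 12.74, 12.29 and 12.91 at 18/1 5 hr. All 4 stimulated samples were above the controls, and the gene rose by 1.44 (SE 0.35), or 2.70-fold (limma, adjusted p = 0.00244). Of the 90/5 2 hr arrays, array 7 gave 10.77 and 11.62 and array 8 gave 12.45 and 12.66, so that 1 value of array 7 was below every control and the other 3 above, and the difference of 0.74 did not pass (limma, adjusted p = 0.209). The other 3 probes of Akap13 did not move in the same way, with −0.15, −0.02 and −0.12 at 18/1 5 hr, the first of them from a probe that passed in all 20 samples (limma over every probe, adjusted p = 0.832). The probe used lies at chr7:82899226-82899285 on the plus strand (mm9), and the passing one that gave −0.15 at chr7:82881198-82881257. With each sample only centred on its median the probe used gave 0.87 (limma, adjusted p = 0.0656).
Akap13 probe used: aagtcgtctccaaatgctgtatgaacattt
Akap13 second probe: aaagaagctgattgtaagagaagtggccca

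Akap8 and Akap8l encode related nuclear proteins that bind chromatin. Akap8 had log2 intensities of 9.44, 9.54, 9.73 and 9.33 in unstimulated neurons. At 18/1 5 hr array 5 gave 7.81 and 7.51 and array 6 9.24 and 9.10, all below the controls but far apart. It fell by 1.10 (SE 0.32), or 2.14-fold (limma, adjusted p = 0.00834), but without array 5 the difference was −0.34 (adjusted p = 0.245), and it missed the threshold also without array 1 or array 2 (0.0574 and 0.0608), with the colours of an array averaged (0.0546) and with only the compared conditions fitted (0.0572). Akap8l went from a mean of 11.06 ± 0.16 to 10.10 ± 0.15 (SD, n = 4) and fell by 0.96 (SE 0.22) with no overlap (limma, adjusted p = 0.00161), but with the GC trend removed the call was lost and the sign turned, at 0.05 (adjusted p = 0.872). Both genes stood at 0.10 and −0.36 at 90/5 2 hr and did not pass.

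Akap2 fell by 0.72 at 18/1 5 hr (limma, adjusted p = 0.0434) with values of 7.31, 6.94, 8.15 and 7.88 against 8.23, 8.28, 8.06 and 8.57, which overlap. This call was lost in 17 of 30 leave-outs and 6 of 11 processing alternatives, and without array 5 the value was −0.27 (adjusted p = 0.411). Another Akap2 probe, passing in 17 samples, went the opposite way, at 2.31. Akap12, a scaffold of adrenergic receptors, was very bright, at a mean of 15.95 ± 0.14 in unstimulated neurons, and was saturated in all 4 samples of 18/1 5 hr. Its difference there was 0.23 as measured and did not pass, and its second passing probe gave −1.03 (limma over every probe, adjusted p = 0.0114). The direction of the saturated probe depended on the processing. With each sample only centred on its median it was called lower, and with the GC trend removed higher, at 0.79 (limma, adjusted p = 0.0321).

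**Figure D3:**
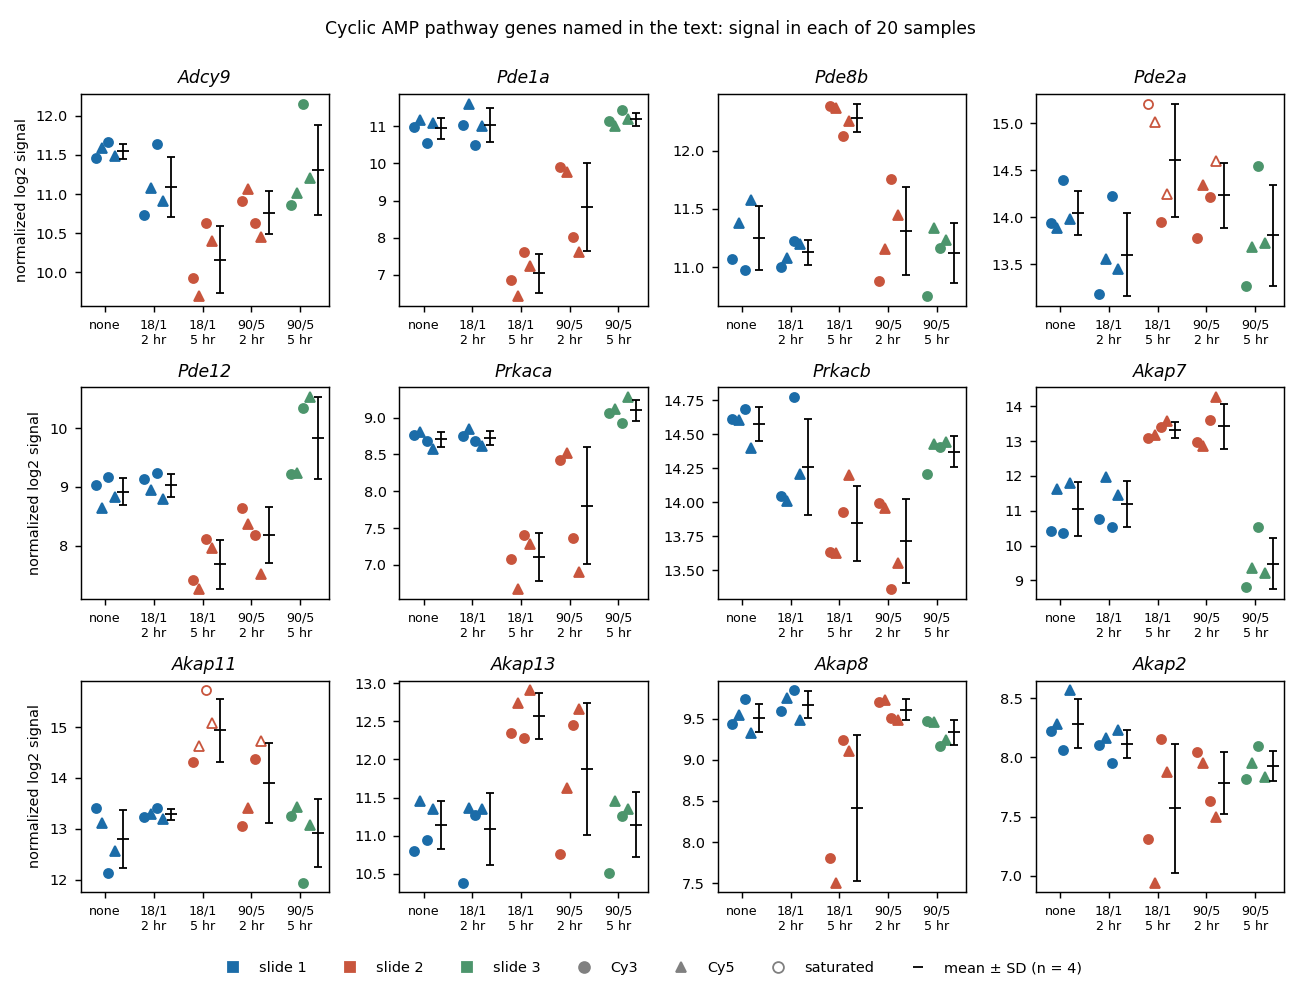
Normalised log2 intensity of the 12 named genes in each of the 20 samples by condition, with circles for Cy3, triangles for Cy5, open symbols for saturated spots, the mean ± SD of the 4 samples and colours for the 3 slides. Pde1a and Prkaca are lowest at 18/1 5 hr, Akap7 is highest in both slide 2 conditions, and at 90/5 2 hr Pde1a and Prkaca split between array 7 and array 8.

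Within slide 2, 90/5 2 hr and 18/1 5 hr could be set against each other without a difference in slide, though pattern and time both differ. Of the 27 genes 4 differed, or 14.8%, against 12.9% of all genes, of which 10.2% were higher and 2.76% lower in 90/5 2 hr. Pde1a was higher in 90/5 2 hr by 1.79 (SE 0.46; limma, adjusted p = 0.017), with values of 7.62 to 9.90 against 6.43 to 7.62, which meet and of which 2 spots were not well above background. Akap8 was higher by 1.19 (SE 0.32; adjusted p = 0.0208), with 9.49 to 9.73 against 7.51 to 9.24. Pde8b was lower by 0.97 on the log2 scale, with all 4 samples below those of 18/1 5 hr (limma, adjusted p = 0.0212), but at −0.25 with median centring (adjusted p = 0.517). Akap12 had 14.97, 15.68, 15.17 and 14.93 at 90/5 2 hr against 16.26, 16.03, 16.57 and 15.89, a log2 difference as measured of −0.999 (limma, adjusted p = 0.0348), but all of the latter and 1 of the former are saturated, so neither the size nor a bound on it is known. With each sample only centred on its median that Akap12 difference had the opposite sign, at 1.07, and 12 genes were called, all higher in 90/5 2 hr, against 4594 of the 10355 genes in either direction. With the colours of an array averaged, or with only these conditions fitted, 0 of the 10355 genes were called. All 4 calls depended on single arrays: without array 5 or array 7 none of the 27 genes was called (439 and 57 of all genes), without array 6 there were 10 (3563 of all) and without array 8 there were 9 (3464 of all).

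The direct comparison of the patterns at 5 hr spans slides 2 and 3. Pde1a was higher in 90/5 by 4.15 as measured (SE 0.46; limma, adjusted p = 1.23e-06), with 2 of the 4 spots of 18/1 5 hr not well above background, Pde12 by 2.15, Prkaca by 1.99 (adjusted p = 5.46e-05; 1 such spot), Akap8l by 1.17, Adcy9 by 1.15, Pde4a by 0.94 and Akap8 by 0.92. Among other losses, the call of Pde4a was lost under quantile normalization and with the GC trend removed, those of Akap8 and Adcy9 with no spot filter and by the methods' t-test, and those of Adcy9 and Akap8l with the GC trend removed. Akap7 was lower in 90/5, at −3.84 (adjusted p = 2.1e-05), as were Akap11 at −2.01 (as measured against 18/1 5 hr spots of which 3 of 4 were saturated), Akap13 at −1.43 and Pde8b at −1.16 (adjusted p = 0.00127). With each sample only centred on its median neither Akap13 nor Pde8b was called. At 2 hr Akap7 was higher in 90/5 by 2.24 and Pde1a lower, at −2.21 (limma, adjusted p = 0.0207 and 0.00559), and without array 3 or array 8, or with no spot filter, neither was called, and without array 4 only Pde1a was. From 2 hr to 5 hr of 90/5, Akap7 fell by 3.94 and Pde1a, Pde12 and Prkaca rose by 2.36, 1.65 and 1.29 (limma, adjusted p = 7.68e-05, 0.00192, 0.00241 and 0.012), and without array 8 or array 10, or with the colours of an array averaged, only Akap7 was called. Between these times of 18/1 the same 4 genes went the other way, by 2.13, −3.99, −1.35 and −1.61. The rise of Prkaca in 90/5 is as measured, since its array 8 spots at 90/5 2 hr were not well above background. So are the 18/1 values of Pde1a and Prkaca, which rest in part on the dim 18/1 5 hr spots given above. These comparisons share samples and slide 2, so their values are set side by side and are not separate evidence.

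Slide 2 limits which genes can be tested, and its conditions are not needed to compare 18/1 2 hr and 90/5 5 hr with unstimulated neurons. When slide 2 was left out with the same spots, 0 and 0 of the 27 genes were called, and 6 and 257 of all 10355. When the spot filter was also asked of the other 12 samples only, which was decided after the data were seen, 41 of the 57 genes and 14902 genes in all could be tested. At 18/1 2 hr 0.0403% of all genes were called and none of the 41, whose log2 differences ran from −0.46 to 0.48 with no unadjusted p under 0.05 in limma, against 8.33% of all genes. At 90/5 5 hr 3.25% of all genes were called and again none of the 41, of which 8 (19.5%) had an unadjusted p under 0.05, against 18.2% of all genes. These were Akap7 at −1.57 (SE 0.40, limma adjusted p = 0.0592), Akap10 at −0.56 (0.0672), Pde4d at 0.75 (0.068), Prkaca at 0.39 (0.0867), Pde12 at 0.91 (0.102), Pde11a at 0.34 (0.117), Akap2 in another probe at 0.41 (0.215) and Akap17b at −0.39 (0.27). The Akap2 probe used for the 27 genes went the other way, with a mean of 7.92 at 90/5 5 hr against 8.29 in unstimulated neurons. Its difference did not pass in the main fit. With array quality weights it was called, at −0.40 (limma, adjusted p = 0.0129). Pde4d, the cyclic AMP specific phosphodiesterase, went from a mean of 8.14 to 8.88. Of the 41 genes 37 were within 0.5 of 0 on the log2 scale.

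**Figure D4:**
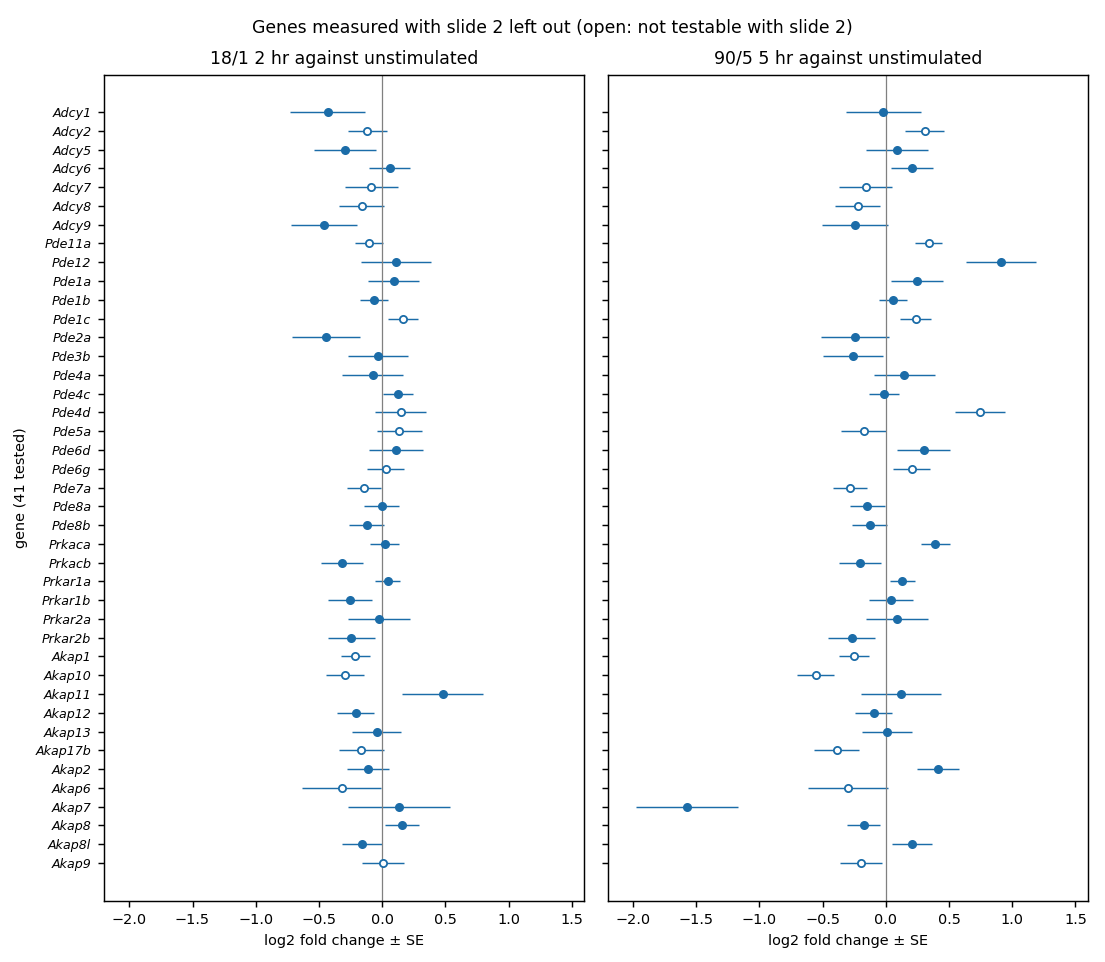
Log2 fold change ± SE of 41 genes at 18/1 2 hr and 90/5 5 hr against unstimulated neurons when the arrays of slide 2 were left out, with open symbols for the 14 genes that could not be tested beside slide 2. Most points lie within 0.5 of 0, and Akap7 at 90/5 5 hr lies lowest at −1.57.

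Of the 57 genes 33 had more than 1 probe and 8 had more than 1 that passed in all 20 samples. With every probe tested on its own, 15 of the 35 passing probes of these families were called at 18/1 5 hr, 5 higher and 10 lower, against 44.9% of 12137 probes in all. At 90/5 2 hr 2 were called, against 6%. Other probes of Adcy5 gave −0.80 and −0.33 beside −0.73. A Prkar1a probe that passed in no sample gave 2.47. Probes of higher GC content gave lower values on slide 2, with a correlation across all genes of r = −0.43 after 5 hr of 18/1 and −0.34 after 2 hr of 90/5, against −0.05 after 2 hr of 18/1 and 0.19 after 5 hr of 90/5. Across the 27 genes it was −0.46, −0.36, −0.25 and 0.08 in that order. Genes are not independent replicates, so this is a description. Removing the GC trend left the number called at 18/1 5 hr at 12, with 6 in each direction, against 3734 of the 10355 genes. Akap2 and Prkacb (at −0.16 and −0.18) and Akap8l no longer passed, and Adcy6, Akap12 and Prkar2a did, at 0.79, 0.79 and −0.97. The Akap12 value is as measured, with all 4 spots of 18/1 5 hr saturated. Removing the trend turned the sign of Adcy6, −0.22 without this step, and of Akap8l, to 0.05. Pde1b also turned, to 0.55, as did Pde8a, Prkar1b and Prkar2b, to −0.14, 0.03 and −0.26.

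**Figure D5:**
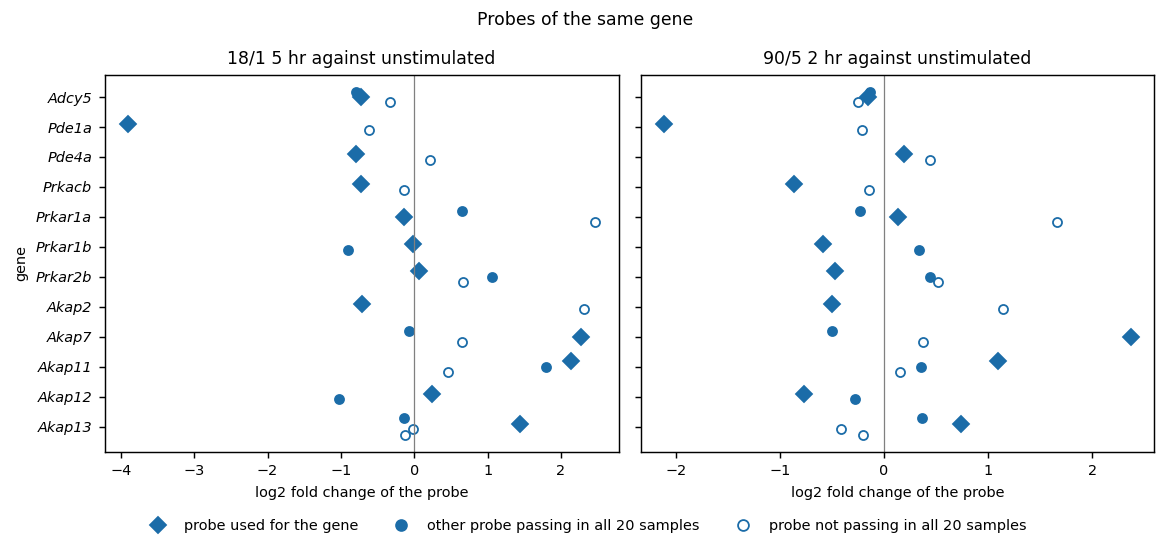
Log2 fold change at 18/1 5 hr and 90/5 2 hr of every probe of 12 genes, with a diamond for the probe used, filled circles for other probes that passed the filter in all 20 samples and open circles for those that did not. The probes of Akap7, Akap13 and Pde1a lie far apart (2.27 against −0.08 for Akap7 at 18/1 5 hr), whereas both passing probes of Akap11 are high, at 2.13 and 1.79.

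Cyclic AMP acts on transcription through factors that bind the sequence TGACGTCA or its shorter form TGACG, so both were searched on both strands in the 300 bases around each start site that RefSeq gives for the GRCm38.p6 build, from 250 before to 50 after. For 46 of the 57 genes there were 88 such windows. The full form was in 2 of them (2.27%, against 1.79% of 32851 windows in all), both of Prkar1a, which overlap and share 1 match, and TGACG or CGTCA, which the full form contains, was in 18 (20.5% against 20.8%). Among genes called lower at 18/1 5 hr it was in 5 of 13 windows, and among those called higher in 2 of 10. A match of letters is not a binding site. The 250 bases before the start site are shown for Prkar1a, the only gene with the full form, for Prkaca, the catalytic subunit that fell furthest, and for Akap11, which rose in 2 probes, with TGACG and CGTCA in capitals. They lie at chr11:109650699-109650948 on the plus strand, chr8:83972728-83972977 on the plus strand and chr14:78536861-78537110 on the minus strand.
Prkar1a: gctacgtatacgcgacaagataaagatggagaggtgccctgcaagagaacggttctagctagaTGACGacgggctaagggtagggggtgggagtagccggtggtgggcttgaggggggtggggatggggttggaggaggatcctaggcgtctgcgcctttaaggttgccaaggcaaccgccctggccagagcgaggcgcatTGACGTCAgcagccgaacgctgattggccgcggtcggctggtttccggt
Prkaca: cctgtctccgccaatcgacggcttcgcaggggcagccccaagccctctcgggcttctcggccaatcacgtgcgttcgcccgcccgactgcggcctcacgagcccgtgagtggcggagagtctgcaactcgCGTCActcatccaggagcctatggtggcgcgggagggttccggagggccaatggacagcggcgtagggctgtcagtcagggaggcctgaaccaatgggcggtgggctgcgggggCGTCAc
Akap11: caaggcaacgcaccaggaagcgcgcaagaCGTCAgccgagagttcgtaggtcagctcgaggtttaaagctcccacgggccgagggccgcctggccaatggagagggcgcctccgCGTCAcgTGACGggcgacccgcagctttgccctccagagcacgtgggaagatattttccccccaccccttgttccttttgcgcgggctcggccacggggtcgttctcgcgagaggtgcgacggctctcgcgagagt

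Genes around these families were read from 5 lists, at 18/1 5 hr, where 44.4% of all genes were called, 15% higher and 29.5% lower. Of 7 G protein alpha subunits 6 were tested at 18/1 5 hr, and 1 was higher and 2 lower: Gnal, the olfactory form that stimulates cyclases, rose by 1.28 (SE 0.33; limma, adjusted p = 0.00395), and Gnaz and Gnai3, which inhibit them, fell by 2.08 and 1.09 on the log2 scale (adjusted p = 7.5e-05 and 0.0219). Gnas, the general stimulatory subunit, was at −0.24. Gnai1 and Gnai2, inhibitory like Gnai3, were at 0.09 and 0.25, and neither they nor Gnas passed. The median of the 6 was −0.07, against −0.23 over all genes. Of 13 anchoring proteins that do not carry the name Akap 8 were tested, and 1 was higher and 4 lower, with a median of −0.97. Wasf1 rose by 0.93, and Cbfa2t3, Arfgef2, Rab32 and Myrip fell by 1.88, 1.09, 1.06 and 1.02 on the log2 scale (limma, adjusted p = 0.0316, 0.000658, 0.0374, 0.0161 and 0.00648). Of 12 genes of cyclic GMP synthesis and its kinases 3 were tested and Prkg1, a cyclic GMP dependent kinase, fell by 0.84 (limma, adjusted p = 0.042). Of 5 PKA inhibitors and exchange factors and of 16 receptors that raise cyclic AMP only Rapgef4 and Ptgir could be tested, at −0.97 and 0.37, and neither passed. No gene of the 5 lists was called in the other 3 conditions against unstimulated neurons, where 0.0193%, 6.97% and 0.0676% of all genes were (18/1 2 hr, 90/5 2 hr and 90/5 5 hr).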

How the data were processed

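Expression was measured on 10 two-colour Agilent mouse arrays with probes of 60 bases, 20 samples in all, both colours of an array holding samples of 1 condition. The authors deposited the mean intensity and median background intensity of each spot in each colour, not normalized, as extracted with Feature Extraction 10.7.1.1 (slide 1) and 10.7.3.1 (slides 2 and 3) per the file headers. The other 75 columns of values in each file were not used. The labels of 18/1 5 hr and 90/5 2 hr give both samples of an array the same dye, so the text names them by array with the colour.

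The analysis used limma 3.58.1 under R 4.3.3, with files read by the data.table package (1.17.8). Background was subtracted by normexp with an offset of 50, colours were normalized by loess with control spots at weight 0, and arrays were scaled by Aquantile to log2 values. Spots had to be at least 2 times their background and not marked non-uniform in all 20 samples. Spots of a probe were averaged and each gene name was represented by its brightest probe. All 20 samples entered 1 limma fit with a mean per condition, a colour term and the array as a random block (correlation 0.529). Benjamini-Hochberg adjustment ran over all 10355 genes, with a threshold of 0.05. Samples with the same replicate number deviated together in unstimulated and 18/1 2 hr (r 0.41 to 0.72), so the numbers were taken to pair them, from the data only and with the dye, which the number also sets, not removed. For unstimulated and 90/5 5 hr r was −0.05 to 0.48, and they were not. Precision is limited by having 2 arrays for each condition. The fit was tested on simulated data.

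Gene names follow the later annotation; under the earlier one, of slide 1, 90 probes and 55 names match. All 57 names match a RefSeq symbol or synonym. Probe positions are those of the file headers' mm9 build. The genes and lists were chosen with earlier results of these data known. Genes were named by a rule: in each family the genes called against controls, up to the 4 with the largest fold change; the 3 with the lowest p at 18/1 2 hr and at 90/5 5 hr; the calcium-regulated cyclases and Pde1 genes; and genes with 2 probes called in opposite directions, of which there were none. Akap8l, Akap12 and others were named after their values were seen. Alternatives covered background, normalization, filter, probe choice, model, the methods' t-test and leaving out samples, arrays or slide 2. The sequence of 1 probe is not reported here.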

Additional observations from a re-analysis of the deposited data

Results flagged for a closer look

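In 2 of the 60 groups of 4 samples that were examined for the 12 named genes, 1 sample stood apart from the others, measured as its gap to the nearest sample over the whole range of the group and set against Dixon's critical value; chance alone gives about 5% of groups. For Akap13 this was replicate 1 of 18/1 2 hr, at 10.39 on the log2 scale against 11.28 to 11.36, a ratio of 0.909. For Prkacb it was replicate 1 of 90/5 5 hr, at 14.20 against 14.41 to 14.44, a ratio of 0.858.

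The change from 2 hr to 5 hr differed between the patterns, by limma's interaction term, in 10 of the 12 named genes. Most of these were named because they were called in the same samples; over all 27 tested genes it was 11 (40.7%), against 44.8% of all genes. It was more positive in 90/5 for Pde1a, by 6.35 (SE 0.64, adjusted p = 2.73e-07), Pde12, by 3.00 (SE 0.46, adjusted p = 3.44e-05), Prkaca, by 2.90 (SE 0.44, adjusted p = 3.24e-05), Adcy9, by 1.48 (SE 0.49, adjusted p = 0.0178), and Prkacb, by 1.07 (SE 0.37, adjusted p = 0.0234). It was more negative in 90/5 for Akap7, at −6.08 (SE 0.78, limma adjusted p = 4.94e-06), Akap11, at −2.62 (adjusted p = 0.0025), Akap13, at −2.21 (adjusted p = 0.00117), Pde2a, at −1.43 (adjusted p = 0.0465), and Pde8b, at −1.34 (adjusted p = 0.00554). The values of Akap11 and Pde2a are as measured, with 3 of 4 spots saturated at 18/1 5 hr and 1 of 4 at 90/5 2 hr in each. Those of Pde1a and Prkaca are too, with 2 and 1 of the 4 spots at 18/1 5 hr not well above background, and for Prkaca 2 of 4 at 90/5 2 hr. The 4 conditions of this comparison lie on 3 slides, and slide and condition cannot be told apart in it.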

How the results depend on the processing

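Fold changes were recomputed under the alternatives for a part of the named genes and comparisons. Adcy6 and Akap8l, whose signs turned with the GC trend removed, were not among them. The values recomputed include leave-outs of samples outside the comparison, which can move its p but not its fold change. They also include results that were not called at the start. Of all these values, 944 kept direction and side of the threshold, 113 lost the call, 6 gained it and 1 changed sign. The last was Akap12 in 90/5 2 hr against 18/1 5 hr with samples only centred on the median (1.07). That centring moved the median of all genes at 18/1 5 hr from −0.23 to −0.81 and the calls there from 4 higher and 8 lower to 2 and 16, and within slide 2 it gave 12 calls, 12 higher and 0 lower. The counts of genes called out of 27 were 12 at 18/1 5 hr (8 to 15 over leave-outs of 1 sample or array), 3 at 90/5 2 hr (0 to 8), 0 at 18/1 2 hr and 0 at 90/5 5 hr (0 to 0 in both), 2 and 12 for 90/5 against 18/1 at 2 hr (0 to 6) and 5 hr (9 to 15), 11 and 4 for 5 hr against 2 hr of 18/1 (7 to 16) and of 90/5 (1 to 9), and 4 within slide 2 (0 to 10). Over the same leave-outs the counts of all genes were, in this order, 2572 to 5662, 87 to 2792, 2 to 4, 2 to 27, 80 to 2547, 3230 to 5708, 2569 to 5678, 258 to 2835 and 57 to 3563. Counts moved by over 1.5 times as follows. Array quality weights gave 3 and 5 after 2 hr of 18/1 and of 90/5, 6 after 5 hr of 90/5 and 4 for the patterns at 2 hr (1600, 1497, 2583 and 1247 of all). No array block gave 7 at 90/5 2 hr, 4 for the patterns at 2 hr, 7 for the times of 90/5 and 10 within slide 2 (2300, 1823, 2354 and 3421 of all 10355 genes, against 722, 514, 928 and 1339). Means of both colours gave 1, 1, 1 and 0 in the same order (205, 163, 309 and 0 of all). No spot filter gave 1 at 90/5 2 hr and 0 for the patterns at 2 hr (492 and 400 of 30222), and fitting only the conditions compared gave 0 within slide 2 (0 of all). The methods' t-test, which also asked for a fold of at least 1.4, gave 8, 4, 7 and 7 (2121, 1747, 1778 and 1721 of all). These are for 90/5 2 hr, the patterns at 2 hr, the times of 90/5 and within slide 2. After adjustment they were 1, 0, 0 and 0 (62, 0, 25 and 0). With adjustment the patterns at 5 hr gave 5 and the times of 18/1 gave 7 (2952 and 3693). The replicate block was fitted with slide 2 left out and without the colour term. At 18/1 2 hr and 90/5 5 hr it called 0 and 0 of the 27 genes, and 7 and 359 of all genes. These compare with the counts given above for the fit without slide 2, not with the fit of all 20 samples. The causes were not tested. Saturation limits what bright probes on slide 2 can show, and dim ones near background may understate differences. Neither effect was measured.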
